A study of Mus musculus with 2 samples.

Results

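Distal EP300 peaks with a CEBP site at the summit numbered 621 in newborn mouse liver, of 21237 distal peaks and 26844 analysed peaks in all. A peak was counted as distal when its summit, the base of highest signal, lay more than 1 kb from every protein-coding transcription start site (TSS), and as holding a CEBP site when 1 of 4 fixed 8-base sequences lay within 50 bases of the summit on either strand. Signal played no part in this choice, so the authors' signal, the nearest genes and the other sequences in the windows were described freely. EP300 chromatin immunoprecipitation with sequencing was done on liver of strain B6NCrl mice at age 0 days, as 1 group of 2 replicates. No genotype, treatment or sex was given for these mice. Both replicates carry 1 biosample label and 1 donor label, so their spread may be technical, and the labels do not say whether 1 animal or several were used.

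EP300 is a histone acetyltransferase without sequence-specific binding of its own, which transcription factors bring to enhancers. CEBP proteins are basic leucine zipper factors that bind DNA as dimers, each partner reading one side of a short palindrome. In liver, CEBPA and CEBPB act at genes of glucose, lipid and amino acid metabolism and of the acute phase, the change in secreted plasma proteins during inflammation. CEBPA and CEBPE also act in granulocyte precursors, and newborn liver still holds the blood-forming cells of the fetal organ, in which GATA1 drives red cell and platelet genes.

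All windows are 101 bases centred on the summit, on the plus strand of GRCm38 (mm10), with the CEBP site in capitals. A site that matched on the minus strand reads as its reverse complement. The first 4 are the members with the highest signal for each form of the site, TTGCGCAA, TTACGCAA, TTGTGCAA and TTATGCAA in that order. Inhbe, which encodes an inhibin beta subunit made by hepatocytes, had its member 1.10 kb upstream of the TSS, just past the limit for promoter peaks, at chr10:127355459-127355559. The window nearest Prdm1, a transcriptional repressor of lymphoid and other cells, was also intergenic, at chr10:44762226-44762326. The window nearest Plcl2, a phospholipase C-like protein, was intergenic at chr17:50454126-50454226. Csgalnact1, an enzyme of chondroitin sulfate synthesis, had its member in an intron at chr8:68606802-68606902.
Inhbe: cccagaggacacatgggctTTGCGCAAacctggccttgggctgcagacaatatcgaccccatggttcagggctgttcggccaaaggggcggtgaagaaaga
Prdm1: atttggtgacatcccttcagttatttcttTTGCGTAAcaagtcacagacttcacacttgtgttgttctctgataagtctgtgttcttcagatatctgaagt
Plcl2: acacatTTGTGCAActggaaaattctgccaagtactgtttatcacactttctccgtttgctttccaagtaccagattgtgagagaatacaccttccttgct
Csgalnact1: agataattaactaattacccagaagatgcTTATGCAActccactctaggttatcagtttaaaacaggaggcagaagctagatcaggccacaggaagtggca

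Apart from the last, the next windows lie nearest genes of the hepatocyte, acute phase and lipid handling lists described below. Fgb encodes the beta chain of fibrinogen, and its window was intergenic at chr3:83039025-83039125. Stat3, the transcription factor that carries interleukin-6 signals, had the highest acute phase member, in an intron at chr11:100916577-100916677. Plin2, which coats lipid droplets, had its window between genes at chr4:86690347-86690447. The window of Hp, haptoglobin, lay between genes at chr8:109584455-109584555. That of Hpd, an enzyme of tyrosine breakdown, lay in an intron at chr5:123196878-123196978. The window of Hnf4a, a nuclear receptor of the hepatocyte programme, lay in an intron at chr2:163540825-163540925. The last window, in an intron near Ankrd13a at chr5:114784720-114784820, holds 2 sites, 1 on each strand. The windows of Plin2, Hp, Hpd and Hnf4a were added after their values were seen.
Fgb: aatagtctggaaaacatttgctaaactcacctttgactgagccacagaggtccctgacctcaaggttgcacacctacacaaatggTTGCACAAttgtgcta
Stat3: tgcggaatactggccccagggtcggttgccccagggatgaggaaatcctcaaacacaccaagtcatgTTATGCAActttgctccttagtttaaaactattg
Plin2: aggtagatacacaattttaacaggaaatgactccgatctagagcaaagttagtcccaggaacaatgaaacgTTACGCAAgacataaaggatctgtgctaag
Hp: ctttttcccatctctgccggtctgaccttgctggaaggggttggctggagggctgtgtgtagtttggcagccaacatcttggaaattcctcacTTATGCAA
Hpd: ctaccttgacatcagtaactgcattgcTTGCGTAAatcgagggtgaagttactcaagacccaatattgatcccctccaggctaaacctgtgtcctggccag
Hnf4a: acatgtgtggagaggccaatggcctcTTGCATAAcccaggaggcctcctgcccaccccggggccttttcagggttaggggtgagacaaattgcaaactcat
Ankrd13a: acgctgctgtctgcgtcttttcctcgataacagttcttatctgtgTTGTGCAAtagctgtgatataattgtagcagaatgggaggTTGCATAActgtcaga

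CEBP sites lay at EP300 summits more densely than beside them. The share of distal peaks with a site was 2.92% (95% Clopper-Pearson interval 2.70 to 3.16), against 0.631% (0.558 to 0.711) of windows centred 500 bases to either side of the same summits, a ratio of 4.63. With 25 bases on each side of the summit the share was 1.52%. At the 5607 promoter peaks, whose summits lay within 1 kb of a TSS, 78 held a site (1.39%, 1.10 to 1.73), with 0.499% in the windows beside them, a ratio of 2.79. The intervals for distal and promoter peaks do not overlap. With 1 group of 2 replicates no test over samples was possible, and every interval here is Clopper-Pearson and covers the counting of peaks only. The lists give no read counts, so the depth behind each peak is unknown.

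**Figure D1:**
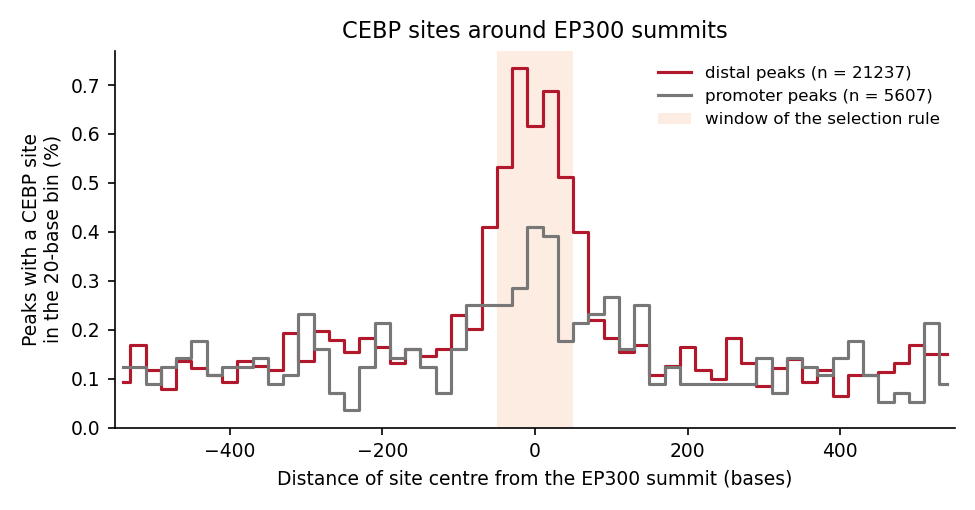
Share of peaks (vertical axis, %) with a CEBP site whose centre lies in each 20-base bin, by distance from the EP300 summit (horizontal axis, bases), for distal and promoter peaks; shading marks the 50 bases on each side used by the rule. The distal line runs at 0.513% to 0.735% inside the shading and falls to 0.400% and 0.410% in the bins just outside it.

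The sites did not stop at the edge of the window. Within it, the bins between 30 and 50 bases from the summit held sites at 113 and 109 distal peaks on the left and right. Just outside, between 50 and 70 bases, the counts were 87 and 85. Farther out, between 90 and 110 bases, they were 49 and 39. The centre of the nearest site lay a median of 21.5 bases from the summit, with quartiles of 12.5 and 33.5 bases, and it was on the left at 322 members (51.9%, 47.8 to 55.8). Members with a site within 10 bases of the summit (131) had a median signal of 41.7, and those with a site 40 bases or more away (67) had 38.2 (quartiles 28.5 to 52.4 and 30.5 to 57.4). The windows held 637 sites in all, none of them in the windows of 2 members. There was 1 site in 606 members and there were 2 sites in 14. Only the member nearest Lrrc40, in an exon on chromosome 3, held 3, with a signal of 40.6.

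The 4 forms of the site were not equally common, nor equally concentrated at summits. TTGTGCAA was the commonest, at 363 distal peaks, and 5.50 times as frequent at summits as in the windows beside them. TTATGCAA, at 190 peaks, had the lowest ratio of the 4 forms, 3.25. Both forms with a CpG in the middle were rare in the genome around the peaks and had higher ratios. TTACGCAA was found at 47 peaks, with a ratio of 6.71, and TTGCGCAA, the perfect palindrome of the CEBP dimer, at 28 peaks, with a ratio of 9.33. The last 2 ratios rest on 14 and 6 control windows. The median signal of members by form ran from 39.5 for TTGTGCAA (360 members) and 40.1 for TTATGCAA (187) to 41.2 for TTGCGCAA (27) and 43.1 for TTACGCAA (47), and the difference was not tested.

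Among the 12 other sequences that keep the outer 6 bases of the site, TTTCGCAA had a ratio of 9.50 (38 distal peaks, 8 control windows), as high as that of the palindrome, although the rule leaves it out. TTGAGCAA, at 268 peaks, had a ratio of 3.94, and TTCAGCAA, at 124 peaks, 1.21. The share of distal peaks with any of the 16 sequences was 9.84%. The bases that flank the site also differed between summits and the windows beside them. An A or G stood before the site, read in its own 5′ to 3′ direction, in 63.4% of the 637 matches of members and 42.4% of 269 control matches. A C or T followed it in 61.2% and 36.8%. Both flanks together, the fuller CEBP palindrome, were found in 40.03% (36.2 to 44.0) of member matches and 14.9% (10.8 to 19.7) of control matches.

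EP300 signal at members was close to that at other distal peaks in the middle of the range, and lower in the upper part. The signal is the authors' value per peak, whose scale is not stated, so members were set against other peaks only within a list. In the optimal list, the median of the 621 members was 39.9 (quartiles 28.5 to 59.8) and that of the 20616 other distal peaks 38.7 (26.5 to 66.7). In replicate 1 the medians were 26.7 and 26.3, and in replicate 2 they were 13.4 and 14.0. The order of the medians thus turned between the replicates. It turned the other way when members were chosen anew from each replicate's own highest peaks, with a log2 ratio of medians of -0.02 in replicate 1 and 0.06 in replicate 2. The upper quartile of members lay below that of other distal peaks in both, at 38.3 and 44.8 in replicate 1 and at 21.5 and 24.0 in replicate 2. The highest member reached 280.0 and the highest other distal peak 633. Members in repeat-masked sequence (31) had a median signal of 32.5, against 40.2 for those outside it.

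The highest members belonged to genes of many kinds. Csgalnact1 led with 280.0 in the optimal list, 166 in replicate 1 and 114 in replicate 2, and ranked 599 in the optimal list. Plcl2 followed with 279 (179.5 in replicate 1 and 97.8 in replicate 2). After them came Scoc, an autophagy protein (264), Tram1, a protein of the translocation channel of the endoplasmic reticulum (261), Smpdl3a, a secreted phosphodiesterase (257, in an exon), and Tomm20, a mitochondrial import receptor (253). Rap1gap2, which switches off Rap1 (225), S1pr1, a receptor for sphingosine 1-phosphate of endothelium and lymphocytes (221), Ikzf2, a zinc finger factor of blood cells (219.5), and Myom1, a sarcomere protein (216), complete the 10. In each of the 10 the value in replicate 1 (130.3 to 179.5) was above that in replicate 2 (79.2 to 114), as it was at most distal peaks. A GATA sequence lay in the window of 8 of these 10 members, beside 1643 of the 2124 distal peaks in the highest decile of signal. The members nearest Tomm20 and Myom1 had none, and that of Myom1 held a FOXA sequence. Nearest genes are named by distance alone, which was 12.8 kb for Rap1gap2 and 138 kb for Tomm20, and no expression data were used to link a peak to a gene.

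Across the range of signal, the share of distal peaks with a CEBP site was higher in the middle than at either end. Distal peaks were ranked by signal and divided into deciles. The share was 1.37% (0.917 to 1.96) in the lowest decile, between 2.68% and 3.95% in the next 8 and 1.22% (0.801 to 1.79) in the highest, which starts at a signal of 132. The highest decile was also the lowest in share when the peaks were ranked by replicate 1 (1.27%) or replicate 2 (1.46%). The lowest decile did not stand apart in the same way, at 2.31% in replicate 1 and 2.92% in replicate 2.

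GATA sequences moved with signal as well. A GATA sequence, GATAA on either strand, lay within 50 bases of the summit at 1643 of the 2124 distal peaks of the highest decile and at 475 of 2123 of the lowest. Among distal peaks without it, the share with a CEBP site was 1.46% (0.935 to 2.16) in the lowest decile, 6.03% (4.69 to 7.60) in decile 8 and 2.08% (1.00 to 3.79) in the highest. Among those with it, the share stayed between 0.974% and 2.07% in all 10 deciles, with overlapping intervals. In the optimal list, the low share of the highest decile was also present among peaks without GATA, on 10 members of 481 peaks. Ranked by replicate, that decile without GATA had 2.26% (1.14 to 4.01) in replicate 1 and 2.92% (1.60 to 4.85) in replicate 2. Both intervals overlap those of the lowest decile without GATA, at 2.45% (1.75 to 3.34) and 3.21% (2.38 to 4.23). The part of GATA was not tested.

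**Figure D2:**
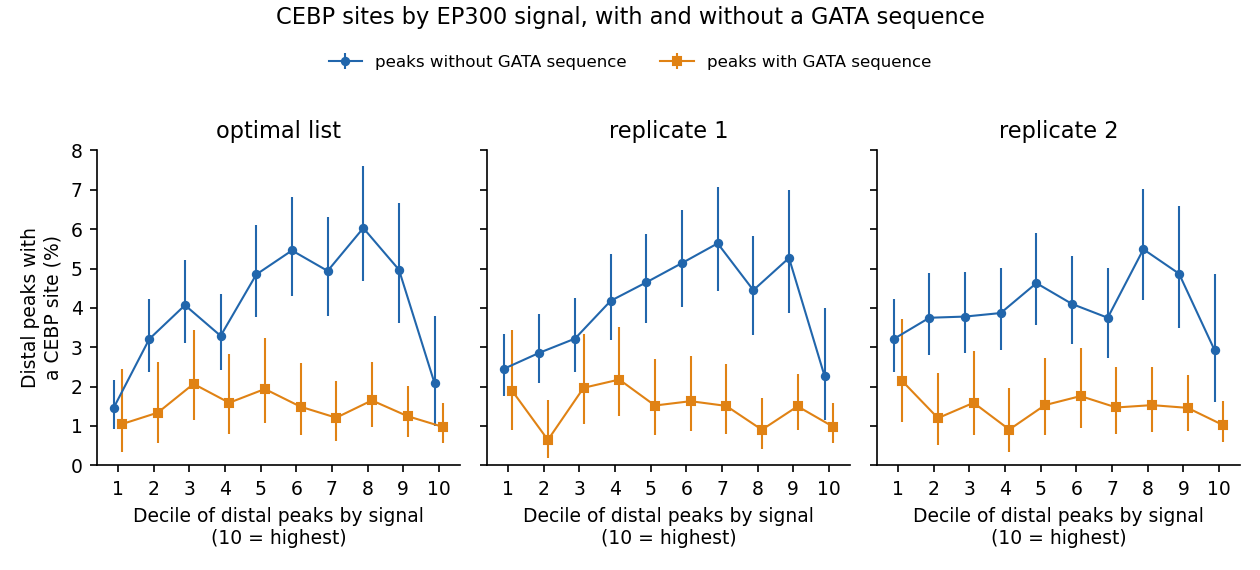
Share of distal peaks with a CEBP site (vertical axis, %) by decile of signal (horizontal axis, 10 is the highest), for peaks with and without a GATA sequence, ranked by the optimal list and by each replicate; points are shares and bars 95% Clopper-Pearson intervals. Peaks without GATA rise to 6.03% in the decile 8 of the optimal list and drop to 2.08% in the highest, while peaks with GATA stay near the bottom of each panel.

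CEBP and GATA sequences were found together at few summits. Of the members, 124 (19.97%, 16.9 to 23.3) held a GATA sequence, against a background of 42.2% (41.5 to 42.9) of other distal peaks. With 25 bases on each side of the summit the values were 9.01% and 26.2%, and with 100 bases 35.9% and 54.3%. In windows 500 bases away they were 13.1% around members and 13.3% around other distal peaks. Counted the other way, 1.40% (1.17 to 1.67) of the 8828 distal peaks with GATA and 4.01% (3.67 to 4.37) of the 12409 without it held a CEBP site. Both shares were above those of their own control windows, by ratios of 2.36 and 6.10. By form, 1 of 27 members with TTGCGCAA, 8 of 47 with TTACGCAA, 72 of 360 with TTGTGCAA and 43 of 187 with TTATGCAA held GATA. The interval of the palindrome (0.0937% to 18.97%) overlaps that of TTATGCAA (17.2% to 29.7%).

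Members with GATA had more signal than members without it, as other distal peaks did. Their medians were 44.6 and 39.0 in the optimal list, 28.9 and 25.9 in replicate 1, and 17.7 and 12.7 in replicate 2. Among other distal peaks the medians were 51.6 with GATA and 33.4 without. The median of members without GATA thus lay above that of other distal peaks without GATA, and the median of members with GATA lay below that of other distal peaks with it. Both orders were the same in replicate 1 (25.9 and 22.9, then 28.9 and 34.1) and in replicate 2 (12.7 and 12.1, then 17.7 and 18.3).

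FOXA sequences stood on the other side of the background. FOXA proteins are forkhead factors that open chromatin in liver, and either of 2 forkhead sequences (TGTTTAC, and with A as its second base TATTTAC) lay near the summit, overlaps with the CEBP site included, at 50 members (8.05%, 6.03 to 10.5), against 5.25% (4.95 to 5.57) of other distal peaks. With 25 bases on each side the values were 4.97% and 2.62%, and with 100 bases 11.4% and 9.67%. In the windows 500 bases away, the first was found at 1.13% and 1.58% and the second at 1.29% and 1.63%. Clear of the CEBP site, TGTTTAC was at 4.67% (3.15 to 6.64) of members, against 3.36% (3.11 to 3.61) of other distal peaks. TATTTAC was at 3.22% (1.98 to 4.93), against 1.96% (1.77 to 2.16). For each form alone, the intervals overlap. Members with FOXA had a median signal of 41.2 and those without 39.7. Both GATA and FOXA were present at 12 members (1.93%) and at 1.53% of other distal peaks. The part of GATA in the FOXA difference was not tested. The direct repeat CAAAGTCCA of HNF4A, a nuclear receptor of hepatocytes, was clear of the CEBP site at 8 members (1.29%, 0.558 to 2.52) and present at 0.795% (0.679 to 0.926) of other distal peaks, and these intervals overlap. Taking 5 hepatocyte factor sequences together (both FOXA forms and those of HNF4A, HNF1 and NR5A2), 66 members (10.6%, 8.32 to 13.3) and 7.10% (6.75 to 7.46) of other distal peaks held at least 1. Here only matches clear of the CEBP site were counted for members. By that count, most members held neither the 5 sequences nor GATA, 444 in all (71.5%, 67.8 to 75.02), against 52.6% of other distal peaks.

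**Figure D3:**
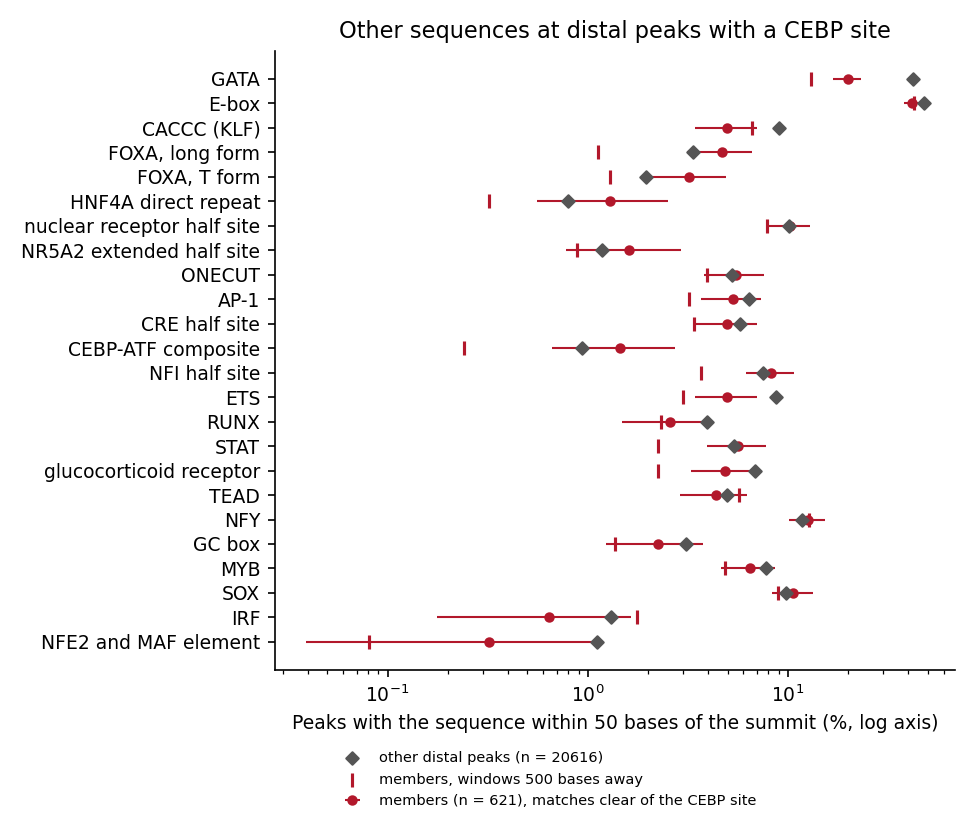
Share of peaks with each of the more frequent sequences within 50 bases of the summit (horizontal axis, %, log scale), for members counting only matches clear of the CEBP site (circles, with 95% Clopper-Pearson intervals), other distal peaks (diamonds) and windows 500 bases from members (ticks). GATA stands at 19.97% for members and 42.2% for other distal peaks, and both FOXA forms lie at or above the value of other distal peaks.

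Of the sequences of other blood cell factors, those of KLF and ETS proteins were at a lower share of members than of other distal peaks. The sequence CCACCC, bound by KLF1 in red cells and by related factors, was clear of the CEBP site at 4.99% (3.42 to 7.01) of members and present at 9.01% of other distal peaks. CAGGAAG, an ETS sequence shared by blood and endothelial factors, was at 4.99% and 8.73%. The NFE2 and MAF element of red cells and platelets was at 2 members (0.322%, 0.0390 to 1.16) and 1.11% (0.972 to 1.26) of other distal peaks, whose intervals overlap. RUNX (TGTGGTT) was at 4.03% of members in all and 2.58% (1.48 to 4.15) clear of the site, against 3.93%. The E-box (CANNTG), read by TAL1 and by many other factors, was at 48.3% in all and 41.9% (38.0 to 45.9) clear of the site, against 47.8%. For CCACCC, the windows 500 bases away held 6.60% around members and 7.31% around other distal peaks, and for the ETS sequence 2.98% and 4.17%. The site takes 8 of the 101 bases of each member's window, which leaves members slightly less room for a second match.

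Several sequences were about as common at members as elsewhere. STAT sequences (TTCNNNGAA) were at 5.64% of members and 5.40% of other distal peaks, AP-1 (TGANTCA) at 5.31% and 6.40%, the single 6-base element of nuclear receptors (AGGTCA) at 10.3% and 10.1%, and the single element of NFI (TTGGCA) at 8.21% and 7.53%. Matches of MYB and OCT sequences often shared bases with the CEBP site. MYB (CAACTG) was at 10.95% of members in all and 6.44% when overlaps were left out, against 7.82% of other distal peaks. OCT (ATGCAAAT) went from 2.74% to 0.805%, against 0.398%. CEBP proteins also pair with ATF proteins and are related to the PAR basic leucine zipper factors. The composite CEBP-ATF sequence TGATGCAA was found clear of the site at 9 members (1.45%, 0.665 to 2.73) and at 0.936% of other distal peaks. The PAR sequence TTACGTAA was at 2 members and 23 other distal peaks (0.112%). A match to any of these sequences is a description of the letters in the window and does not show which protein was bound.

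By nearest gene, the share of members beside listed hepatocyte genes was near its background, and the share beside listed blood cell genes was below its background. Genes were taken from 21 lists, and a peak was assigned to a gene when that gene had the nearest protein-coding TSS, within 50 kb. At 7 lists of hepatocyte genes (secreted proteins, gluconeogenesis and glycogen, urea cycle and amino acid breakdown, coagulation and complement, bile acids, xenobiotic metabolism and transcription factors), 12 of 329 distal peaks were members (3.65%, 1.90 to 6.28), and at 5 lists of blood cells 1 of 220 (0.455%, 0.0115 to 2.51), with intervals that overlap. Read over the members, 1.93% (1.00 to 3.35) lay nearest a hepatocyte gene, against a background of 1.54% of other distal peaks, which is inside that interval. For blood cell genes the values were 0.161% (0.00408 to 0.894) and a background of 1.06%, which is above that interval. GATA sequences were present at 21.9% of the distal peaks of hepatocyte genes and 47.7% of those of blood cell genes, and among peaks without GATA the members were 11 of 257 and 1 of 115. The part of GATA in the difference between the lists was not tested. In whole liver, fewer cells of a type and less EP300 per cell cannot be told apart.

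**Figure D4:**
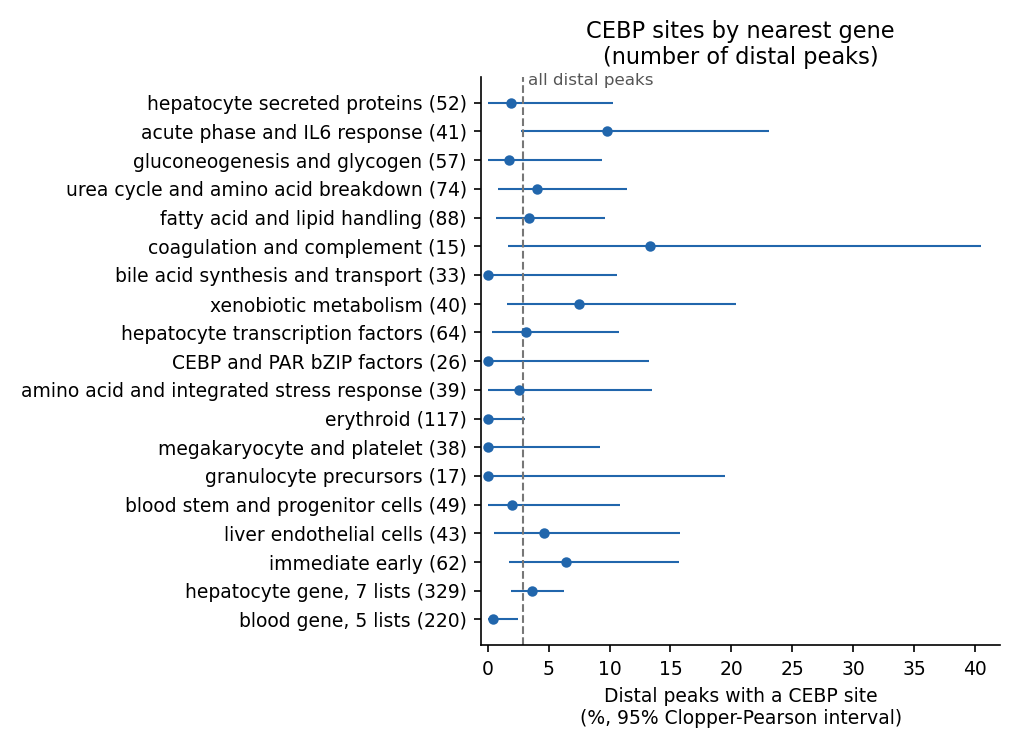
Share of distal peaks with a CEBP site (horizontal axis, %) among the distal peaks nearest the genes of each list, with the number of distal peaks in brackets; points are shares, bars 95% Clopper-Pearson intervals and the dashed line the 2.92% of all distal peaks. The intervals are wide, and 0 of 117 peaks of erythroid genes held a site.

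The acute phase list, which is not among those 7, had 4 members among its 41 distal peaks (9.76%, 2.72 to 23.1). The 2.92% of all distal peaks is inside that interval. Stat3 had the highest, 22.8 kb downstream of its TSS in an intron, with a signal of 84.4 (55.8 in replicate 1 and 26.7 in replicate 2). The member of Hp, haptoglobin, which binds free haemoglobin, lay 5.33 kb upstream and had a signal of 37.1 (29.3 and 9.98). Lbp, the lipopolysaccharide-binding protein, had one at 36.7 and Il1r1, the interleukin-1 receptor, one at 22.8. The last was the only 1 of the 4 that was higher in replicate 2 (13.4) than in replicate 1 (10.2), and Lbp alone of the 4 held a GATA sequence. In the list of 26 genes of secreted hepatocyte proteins, Fgb was the only gene with a member, of 52 distal peaks at 19 genes. The signal of the Fgb member was 105 (66.9 and 37.2). The list is not complete, and members also lay nearest genes outside it such as Selenop (96.6) and Apoc4 (70.7).

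Genes of amino acid and lipid metabolism had 6 members over 2 lists. For the urea cycle and amino acid breakdown, 3 of 74 distal peaks were members (4.05%, 0.844 to 11.4). Hpd had a signal of 103 (65.7 in replicate 1 and 37.4 in replicate 2), with the CpG form of the site shown above. Gpt2, an alanine transaminase, had 40.8 (21.2 and 18.9), and Gstz1, another enzyme of tyrosine breakdown, 33.7 (22.9 and 10.6). Lipid handling genes, also outside the 7 lists, had 3 members of 88 distal peaks (3.41%, 0.709 to 9.64). Both intervals include the 2.92% of all distal peaks. Plin2 was the highest member at any listed gene, 20.3 kb upstream of the TSS, at 191 (123 and 65.4). Dgat2, which makes triglyceride, had 63.1 (43.5 and 16.8), and Mttp, which loads lipid onto apolipoprotein B, had 47.7 (33.9 and 14.0).

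Other lists among the 7 had few members as well. Coagulation and complement had 2 of 15 distal peaks, F11, coagulation factor XI, and C4b, complement component 4B, both at 41.8. The member of F11 was higher in replicate 2 (22.01) than in replicate 1 (18.5) and held a GATA sequence, while C4b had 27.4 and 14.9 and no GATA. Xenobiotic metabolism had 3 of 40. Cyb5a, cytochrome b5, had 44.5 (23.6 and 19.8), Cyp2b10, a drug-metabolising cytochrome P450, had 35.3 (32.6 and 4.79) beside a FOXA sequence, and Nr1i2, the pregnane X receptor, had 21.4 (16.6 and 3.57). Among hepatocyte transcription factors, 2 of 64 distal peaks were members. That of Hnf4a lay 6.31 kb upstream at 98.98 (66.97 and 32.8), and that of Nr5a2, a nuclear receptor of bile acid and cholesterol genes, at 30.02 (19.8 and 8.12). Bile acid synthesis and transport had 0 of 33, an upper bound of 10.6%. The exact interval of each list in this paragraph includes the 2.92% of all distal peaks.

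Within 50 kb, none of the 26 distal peaks nearest a gene of the CEBP and PAR factors themselves was a member (upper bound 13.2%). Beyond that limit, 1 member lay 65.2 kb downstream of the TSS of Cebpb, with a signal of 93.3. Erythroid genes had 0 of 117, which by a floor of 3 counts allows a share of up to 2.56% (the exact interval ends at 3.10%), megakaryocyte genes 0 of 38, granulocyte precursors 0 of 17 and macrophages 0 of 7. The exact intervals of all 4 lists include the 2.92% of all distal peaks. These lists are not complete either. Members also lay nearest genes outside them, such as Mpeg1 (77.4, at 15.6 kb) and Cd14 (35.9, at 13.2 kb). The 1 member at a blood list belonged to Myc, a growth regulator active in many cell types, 1.76 kb upstream of its TSS, with 39.2 (25.2 in replicate 1 and 10.3 in replicate 2). Of the defining marker genes, a summit of the optimal list lay within 10 kb for 4 of 5 of hepatocytes, 5 of 5 of erythroid cells, 3 of 3 of megakaryocytes, 2 of 3 each of granulocytes, endothelium and stellate cells, 0 of 3 of macrophages and 0 of 4 of neurons and muscle.

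Endothelial genes had 2 members of 43 distal peaks (4.65%, 0.568 to 15.8). Esam, an adhesion molecule of endothelium and platelets, had 154 (94.1 in replicate 1 and 61.03 in replicate 2), and Egfl7, a secreted endothelial protein, 28.3 (13.6 and 14.4). The immediate early list, genes that respond within minutes to growth signals, had 4 of 62 (6.45%, 1.79 to 15.7). The 2.92% of all distal peaks is inside this interval and inside that of the endothelial list. Dusp1, a phosphatase of MAP kinases, had 87.1 (64.6 and 22.4), Ier2 had 2 members at 60.6 and 33.3, and Nr4a1, an orphan nuclear receptor, had 23.1 in repeat-masked sequence. For the amino acid and integrated stress response, 1 of 39 distal peaks was a member, in an exon 19.7 kb downstream of the TSS of Psat1, an enzyme of serine synthesis, at 35.8 (21.1 and 12.7). Stellate cells had 0 of 6, neurons 0 of 4 and muscle 0 of 1.

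The members were spread over many genes. The 621 members had 564 different nearest genes, of which 39 had 2 members, 9 had 3 and none more. The 9 genes, named after their values were seen, were Fgf1, Foxq1, Gadd45b, Gadd45g, Hlx, Myc, Rad51b, Rbm47 and S1pr1. Gadd45b and Gadd45g encode related stress sensors of growth arrest and DNA damage. The members of Gadd45b, 29.05, 29.3 and 32.7 kb downstream of its TSS, had signals of 64.5, 44.2 and 44.9. The peaks at 29.05 and 29.3 kb overlap. Those of Gadd45g were 26.7, 176 and 333 kb downstream, with 35.5, 54.5 and 94.2. Myc had 80.0, 42.6 and 39.2 at 514, 359 and 1.76 kb. Of the 3 near S1pr1, the highest had 221 and the lowest 8.25, and the lower pair, side by side, took their replicate 2 value of 22.6 from 1 peak.

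**Figure D5:**
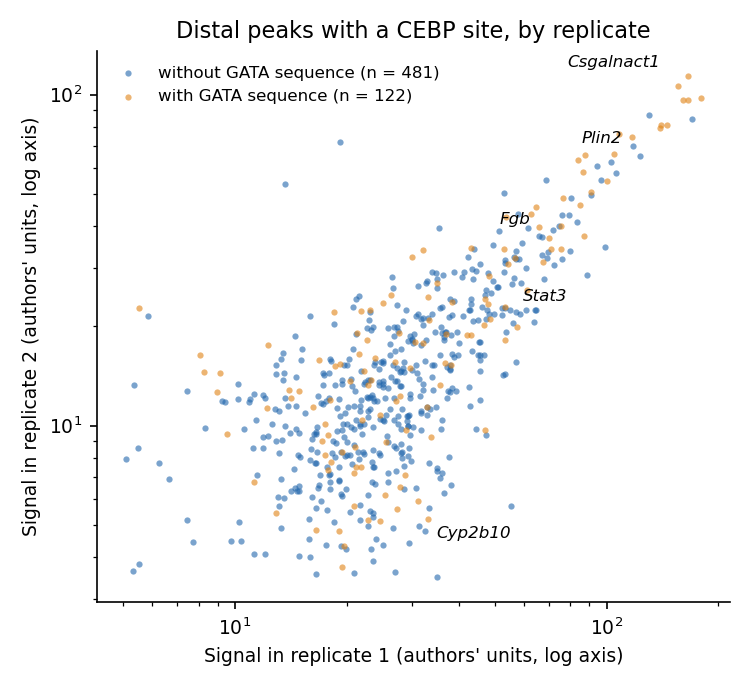
Authors' signal of each member in replicate 1 (horizontal axis, log scale) and replicate 2 (vertical axis, log scale), for the 603 members that overlap a peak in both lists, coloured by GATA. Csgalnact1, Plin2, Fgb and Stat3 run along the main cloud, and Cyp2b10 lies below it, with 4.79 in replicate 2.

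Members and other distal peaks overlapped the replicate lists at similar shares. All come from a list thresholded by the irreproducible discovery rate, so agreement between replicates was part of their choice. Each replicate list holds 300000 peaks, so a high overlap with the full lists says little about repeatability. Every member overlapped a peak of replicate 1, and 603 (97.1%, 95.5 to 98.3) overlapped one of replicate 2, against 99.8% and 96.8% of other distal peaks. Taking from each replicate its 26844 highest peaks, as many as were analysed in the optimal list, 423 members (68.1%, 64.3 to 71.8) were among them in both replicates, close to the background of 68.9%. The conservative list held 77.9% of members and 76.2% of other distal peaks. The log2 ratio of replicate 1 to replicate 2 signal had a median of 0.96 (SD 0.71) over 603 members and 0.91 (SD 0.71) over other distal peaks. For members with GATA it was 0.82 (SD 0.74) and for those without 1.00 (SD 0.70). As a description over peaks of the same 2 libraries, Spearman's rho between the replicates was 0.661 for members and 0.727 for other distal peaks. Pearson's correlation of log2 signal was 0.706 and 0.804. The range of signal was wider among other distal peaks, and its part in these differences was not tested.

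In the genome, 309 members (49.8%) lay between genes, 280 (45.1%, 41.1 to 49.1) in introns and 32 (5.15%) in exons. Other distal peaks had 45.6%, 49.8% (49.2 to 50.5) and 4.52%. The median distance to the nearest protein-coding TSS was 21691 bases for members and 18952 for other distal peaks, and 13.2% and 12.2% lay more than 100 kb away. Repeat-masked sequence held the summit of 31 members (4.99%, 3.42 to 7.01), against 9.78% (9.38 to 10.2) of other distal peaks. The median GC content of the window was 44.6% and 46.5%. Members had fewer EP300 neighbours. Another summit of the optimal list lay within 12 kb of 60.5% (56.6 to 64.4) of members and 66.3% (65.6 to 66.9) of other distal peaks, and 3 or more lay there for 14.8% (12.1 to 17.9) and 22.0% (21.4 to 22.6). A second member was that near for 23 of the 621. Overlapping peaks of the optimal list count as neighbours here. They were found for 9.18% (7.03 to 11.7) of members and 14.6% (14.1 to 15.1) of other distal peaks.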

How the data were processed

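Peak lists deposited by the authors on mouse build mm10 were used: 1 per replicate (300000 peaks each) and the optimal and conservative lists, thresholded by the irreproducible discovery rate, of 26883 and 23700 peaks. The pooled list was not used. Per the deposited descriptions, the lists were made from aligned reads with a control. The sources used here do not give the aligner, peak caller, threshold or versions. In each list the authors' signal is a value per peak of unstated scale, and the optimal and conservative lists carry the pooled list's signal. Read depth is unknown. The files held 0 columns of samples of other series.

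The 26844 optimal peaks on chromosomes 1 to 19 and X were placed by summit against GENCODE M21, and sequence came from the soft-masked GRCm38 genome, the same assembly as mm10. Introns and exons are those of any protein-coding gene, which need not be the nearest gene named. A replicate's value at a peak is that of its overlapping peak (at least 1 base) with the nearest summit. 30 fixed sequences were searched on both strands within 50 bases of each summit and in windows centred 500 bases to each side. Matches that share bases with the CEBP site were also counted apart. Of 429 listed gene symbols in 21 lists, 428 had a protein-coding TSS. The text names the 10 members with the highest signal, the 2 highest of each list, genes with 5 or more members (there were none) and members with 3 or more sites; other members of lists with 5 or fewer, and genes with 3 members, were named after their values were seen. 1 member that this rule names is not reported here. Members, lists and sequences were chosen with earlier results of these data known. Python 3.11.15, numpy 2.4.6, pandas 2.3.3, scipy 1.17.1 and matplotlib 3.10.9 were used, and the scripts were tested on simulated data. Alternatives were another window, distal minimum, peak list, consensus, signal range or repeat treatment, each replicate left out, and summits within 100 bases for sharing.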

Additional observations from a re-analysis of the deposited data

How the results depend on the processing

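The share of 2.92% was 1.52% in a window of 25 bases on each side, 4.30% in 100 bases and 9.84% with the relaxed consensus TTNNGCAA, since these search fewer bases, more bases or more sequences. It stayed within the spread between replicates under the other 6 alternatives, and ran from 2.62% to 3.08% without 1 replicate. The log2 ratio of median signal, members over other distal peaks, was 0.04. It turned to -0.18 in the upper 50% of peaks by signal and ran from -0.02 to 0.06 without 1 replicate, turning when replicate 2 was left out. The cause was not tested.

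The percent of members nearest a hepatocyte gene (1.93%) was 2.48% and 2.41% in the shorter and longer windows, 1.55% with a distal minimum of 5 kb, 1.81% in the conservative list, 2.13% in the upper 50%, 2.49% with the relaxed consensus and 2.03% without repeats, and from 1.91% to 2.04% without 1 replicate. In each it lay above the value of other distal peaks (1.31% to 1.55%). GATA sequences (19.97%) were at 9.01% and 35.9% of members in the shorter and longer windows, 22.5% in the upper 50%, 26.4% with the relaxed consensus and 17.9% to 19.1% without 1 replicate, each below other distal peaks (26.2% to 54.3%). FOXA sequences (8.05%) were at 4.97%, 11.4% and 6.41% in the windows and with the relaxed consensus, and 7.05% to 7.81% without 1 replicate, each above other distal peaks (2.62% to 9.67%). The share among the highest peaks of both replicates (68.1%) was 80.4% in the conservative list and 95.1% in the upper 50%, where other distal peaks had 79.9% and 97.2%. With summits within 100 bases required it was 65.1%, above the 61.2% of other distal peaks.

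Of 31 named members, 18 remained in the window of 25 bases and 20 in the list of replicate 2 alone. No paired analysis was possible because there is 1 group. Depth limits every value at weak peaks, and the lists do not state it.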

Other observations

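The 20 members that follow the 10 highest by signal, looked at after their values were seen, ran from Prdm1 (194) to Irf2bpl (126), and 10 of them held a GATA sequence, beside 1279 of 2124 and 1643 of 2124 distal peaks in deciles 9 and 10 of signal. Beside Prdm1 and Plin2 they included members nearest Helt, a basic helix-loop-helix repressor (189), Ank, which exports pyrophosphate (184), Sgms1, a sphingomyelin synthase (166), Dhrs3, which reduces retinaldehyde (164), and Irf2, a regulator of interferon genes (153). Each was higher in replicate 1 than in replicate 2, as for Helt with 118 and 70.2.

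The 15 members with 2 or more sites had a median signal of 40.6, against 39.9 for all members. Among them were Ankrd13a (172), Btbd19 (145) and Hlx, a homeobox factor of liver development (70.0). By chromosome, the share of distal peaks with a site ran from 1.78% (1.10 to 2.71) on chromosome 7 to 4.32% (3.27 to 5.59) on chromosome 4.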
